A study of Homo sapiens with 16 samples.

Results

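The regions described here are the TOP2B peak intervals on chromosomes 16 and 22 and on the outer parts of chromosome 19 in PC9, an established line of human lung adenocarcinoma cells whose growth depends on mutant EGFR. An interval was included when it lay on chromosome 16 or 22, or when its midpoint lay below 30 Mb or at or above 50 Mb of chromosome 19, on build GRCh37. By this rule 5345 of the 44922 intervals in the 4 deposited lists were members. The 4 lists came from METTL7A knockout cells under osimertinib, wild-type cells under osimertinib, untreated METTL7A knockout cells and untreated wild-type cells, each with 2 replicate TOP2B libraries and 1 list. Osimertinib, an inhibitor of mutant EGFR, was applied over 6 to 8 weeks, beginning at 100 nM and escalating. METTL7A encodes a member of the methyltransferase-like family. The sources used here do not state whether the knockout cells were 1 clone or a pool, or whether replicates came from separate cultures. The genotype labels were not checked, since the METTL7A locus is not among these regions.

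TOP2B is a type II DNA topoisomerase. It cuts both strands of one DNA duplex, passes another duplex through the gap and reseals it, which relieves supercoiling and tangles. It is known to act near promoters and at the anchors of chromatin loops, where CTCF and cohesin sit. In CUT&RUN, the assay used here, an antibody tethers a nuclease that releases the DNA around the target for sequencing. Chromosomes 16, 19 and 22 are known as gene-rich chromosomes, and the end of the long arm of chromosome 19 is known for clusters of KRAB zinc finger genes. The gene content of the intervals was not measured here, because no annotation of GRCh37 was used, so the regions are named by position only. No sequence is printed for the same reason.

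Each condition had a single list, so there was no spread between replicates, no test between conditions, and every 95% interval below covers counting error only. The lists held 7493 intervals in treated knockout, 9655 in treated wild type, 12493 in untreated knockout and 15281 in untreated wild type, and shares are given as percent of the list. The depth behind each list is unknown from the files. The lowest maximum that entered a list was 0.50, 0.455, 0.40 and 0.417 times the list median in the same order. The lists thus differ in how far they reach below their own median. Whether their lower limits themselves differ cannot be told, since the scaling of the maximum is unstated.

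Members made up a similar share of 3 lists and a smaller share of the treated wild-type list. There were 975 members in treated knockout, 13.0% of the list (95% interval 12.3 to 13.8), and 811 in treated wild type, 8.40% (7.85 to 8.97). Untreated knockout held 1669, or 13.4% (12.8 to 14.0), and untreated wild type held 1890, or 12.4% (11.9 to 12.9). By share of the list, the ratio of treated knockout to treated wild type was 1.55 (1.41 to 1.70) and that of untreated knockout to untreated wild type 1.08 (1.01 to 1.15). The ratio of treated to untreated was 0.679 in wild type (0.625 to 0.738) and 0.974 in the knockout (0.899 to 1.05). Treated wild type thus stood apart from the other lists, whose members differed by little in total.

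The members lay on 5 chromosome segments, whose shares of a list differed. The end of chromosome 19 from 50 Mb and the long arm of chromosome 16 held most members. The long arm of chromosome 16 was taken as everything from 40 Mb, since none of the lists had an interval on chromosome 16 between 35250350 and 46385801, the stretch around the centromere. On chromosome 19 from 50 Mb there were 589 intervals in treated knockout, 191 in treated wild type, 855 in untreated knockout and 742 in untreated wild type. These were 7.86% of the treated knockout list (7.26 to 8.49), 1.98% of treated wild type (1.71 to 2.28), 6.84% of untreated knockout (6.41 to 7.30) and 4.86% of untreated wild type (4.52 to 5.21). The long arm of chromosome 16 held 321, 256, 665 and 849 intervals in the same order of lists.

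The short arm of chromosome 16 and chromosome 22 showed the opposite order of the treated lists. Below 40 Mb of chromosome 16 there were 38 intervals in treated knockout, 188 in treated wild type, 70 in untreated knockout and 129 in untreated wild type. Chromosome 22 held 14 in treated knockout, 159 in treated wild type, 40 in untreated knockout and 96 in untreated wild type. In both segments the treated wild-type list held the most intervals by number as well as by share. The first 30 Mb of chromosome 19, a stretch known to be rich in genes, was sparse in every list, with 13, 17, 39 and 74 intervals in the same order.

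**Figure D1:**
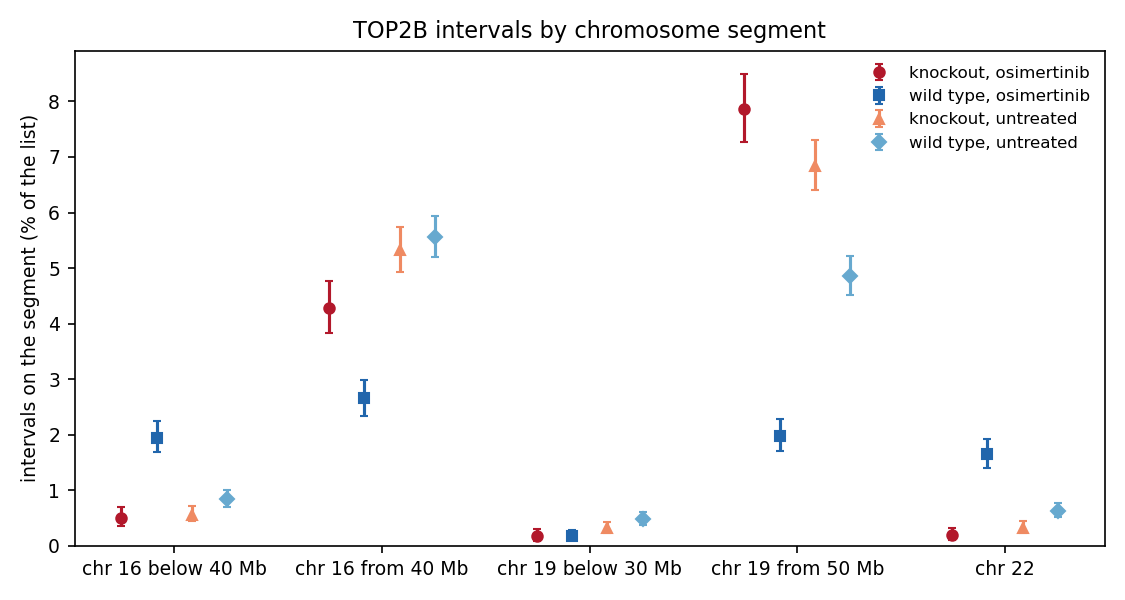
Share of each TOP2B list (percent of its intervals, y axis) on the 5 chromosome segments (x axis), with 1 point per list and exact Clopper-Pearson 95% intervals as bars, which cover counting error only. Treated wild type is the highest list on chromosome 16 below 40 Mb (1.95%) and chromosome 22 (1.65%) and the lowest on chromosome 19 from 50 Mb (1.98%).

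Density also separated the segments. Chromosome 19 from 50 Mb held 58.9 intervals per occupied 1 Mb window in treated knockout, 21.2 in treated wild type, 85.5 in untreated knockout and 74.2 in untreated wild type. Outside the members the lists held 9.34, 10.2, 12.3 and 14.2 intervals per occupied window in the same order. Chromosome 22 was at the other end in treated knockout, with 1.4 per occupied window against 7.95 in treated wild type. Neighbouring midpoints on chromosome 19 from 50 Mb lay a median of 5.25 kb apart in treated knockout, 10.8 kb in treated wild type, 5.78 kb in untreated knockout and 8.3 kb in untreated wild type. The window just outside the upper limit, 49 to 50 Mb, held 2, 0, 2 and 11 intervals, and the window just inside, 50 to 51 Mb, held 9, 8, 24 and 38. At the lower limit the window just inside, 29 to 30 Mb, held 0, 2, 3 and 2, and the window just outside, 30 to 31 Mb, held 1, 15, 4 and 5, each in the order of lists used above.

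The comparison of osimertinib with no treatment in wild type addresses TOP2B occupancy after growth under the drug, and here the ratios of member windows spanned the widest range. Windows of 1 Mb entered the comparison with at least 10 intervals in one of both lists, and those whose shares lay 2-fold or more apart (ratio computed after adding 0.5 to both counts) are counted below. Of 50 member windows, 15 were 2-fold or more higher in share under osimertinib (30%), where the background over all 464 windows examined was 33.0%. Another 25 were 2-fold or more lower (50%), where the background was 36.0%. In all 40 windows passed (80%), where the background was 69.0%, so differences of this size were frequent across the genome and not a mark of these chromosomes. The median log2 ratio was -0.99 over the member windows and -0.20 over all windows examined.

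Of the 25 windows with lower shares, 14 lay on the long arm of chromosome 16, 6 on chromosome 19 from 50 Mb, 2 each on the short arm of chromosome 16 and on chromosome 22, and 1 on the first 30 Mb of chromosome 19. The long arm held a stretch with few treated wild-type intervals. From 47 to 59 Mb of chromosome 16 there were 180 intervals in treated knockout, 15 in treated wild type, 410 in untreated knockout and 499 in untreated wild type. The treated to untreated ratio of shares was 0.0476 in wild type (0.0264 to 0.0792) and 0.732 in the knockout (0.611 to 0.874). This stretch, like the other stretches of several windows below, was chosen after the counts had been seen, and its values are a description. Wild type had no interval under osimertinib in the windows at 48 to 49 Mb, 51 to 52 Mb and 55 to 56 Mb, against 52, 27 and 55 in untreated wild type. The upper limits of the exact intervals of these treated to untreated ratios were 0.116, 0.232 and 0.110. With a floor of 3 intervals, a count of 0 in treated wild type allows a share of up to 0.0311% of the list. An empty window thus shows that no peak was listed there, not that coverage was absent.

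Farther along the arm the difference became smaller and then turned round. From 66 to 72 Mb of chromosome 16 there were 59, 25, 110 and 135 intervals in treated knockout, treated wild type, untreated knockout and untreated wild type. The ratio of treated to untreated was 0.293 in wild type (0.183 to 0.452) and 0.894 in the knockout (0.640 to 1.24). From 83 Mb to the end of the chromosome the counts were 38, 178, 62 and 120 in the same order, with a ratio of 2.35 in wild type (1.85 to 2.98) and 1.02 in the knockout (0.664 to 1.56). The window at 89 to 90 Mb held 8 intervals in treated knockout, 43 in treated wild type, 13 in untreated knockout and 11 in untreated wild type. At 83 to 84 Mb there were 10 intervals in treated wild type and 1 in untreated wild type, a ratio of 15.8 with a wide interval (2.25 to 687).

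On the short arm the windows with higher shares lay toward the centromere. From 27 to 33 Mb of chromosome 16 there were 8 intervals in treated knockout, 148 in treated wild type, 13 in untreated knockout and 28 in untreated wild type. The ratio of treated to untreated shares was 8.37 in wild type (5.56 to 13.0) and 1.03 in the knockout (0.369 to 2.67). At 27 to 28 Mb the counts were 0, 32, 2 and 3 in the same order, a ratio of 16.9 for treated over untreated wild type (5.28 to 86.2). The first 4 Mb of the arm went the other way, with 8, 0, 8 and 45 intervals. The exact interval of the treated to untreated ratio in wild type had an upper limit of 0.135 there. The adjoining stretch from 33 to 36 Mb differed by less, with 12, 25, 21 and 26 intervals.

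On chromosome 22, 96 of the 159 treated wild-type intervals lay in one stretch. From 37 to 40 Mb there was 1 interval in treated knockout, 96 in treated wild type, 4 in untreated knockout and 24 in untreated wild type, and the treated to untreated ratio in wild type was 6.33 (4.01 to 10.4). At 37 to 38 Mb, 39 intervals were listed in treated wild type and 0 in each of the other lists. For this window, the exact interval of the treated to untreated ratio in wild type had a lower limit of 15.95. From 40 to 52 Mb the counts were 3, 45, 8 and 15, a ratio of 4.75 in wild type (2.60 to 9.17). In the first part of the chromosome, from 16 to 37 Mb, they were 10, 18, 28 and 57, a ratio of 0.5 (0.277 to 0.862). Of the 33 windows of chromosome 22 with an interval in any list, 10 were occupied in treated wild type alone.

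At the end of chromosome 19, treated wild type had fewer intervals than untreated wild type in each of the 9 windows examined, though not to the same degree. The ratio of treated to untreated shares in wild type was 0.407 (0.346 to 0.478) over the segment from 50 Mb. At 52 to 53 Mb there were 61 intervals in treated knockout, 11 in treated wild type, 105 in untreated knockout and 95 in untreated wild type. At 56 to 57 Mb there were 132, 51, 138 and 95 in the same order. The log2 ratio of treated to untreated wild type was -2.39 in the first of these windows and -0.23 in the second. It was lowest on this segment at 57 to 58 Mb, at -2.91, where the counts were 17, 5, 56 and 65.

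**Figure D2:**
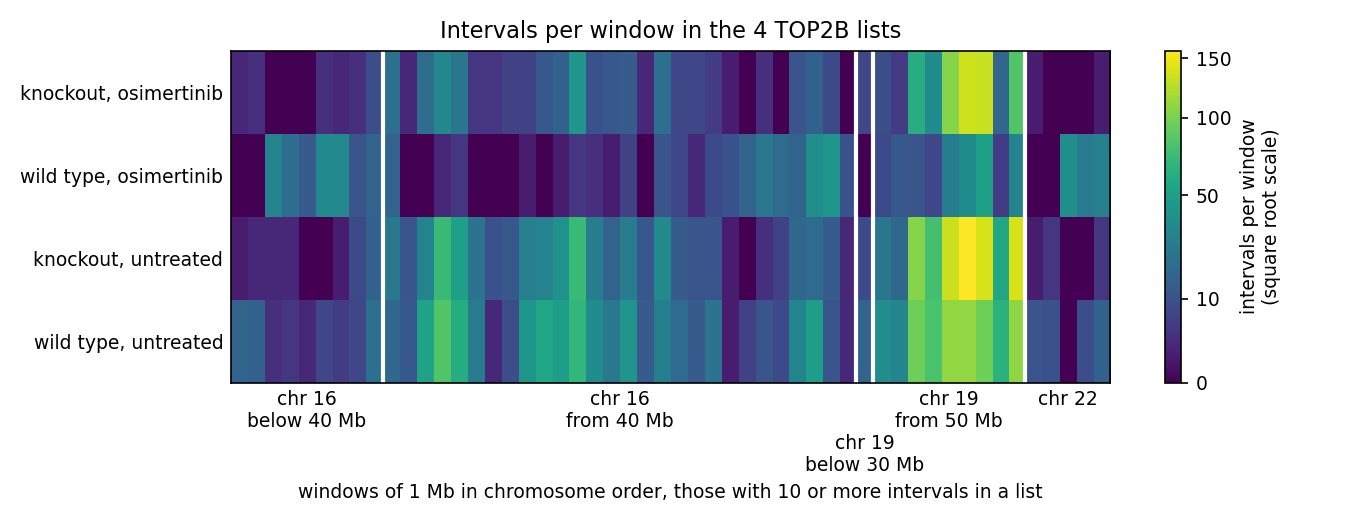
Intervals per 1 Mb window (colour, square root scale) in the 4 TOP2B lists (rows) for member windows with 10 or more intervals in at least 1 list, in chromosome order (columns) with white lines between segments. The treated wild-type row is dark over much of chromosome 16 from 40 Mb, where the other rows are lighter, and lighter than the other rows in several windows of chromosome 16 below 40 Mb and in the last 3 windows of chromosome 22.

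In the knockout, the same comparison showed narrower differences among the members. Of 33 windows, 0 were 2-fold or more higher in share under osimertinib, where the background over 276 windows was 2.90%. The number 2-fold or more lower was 5 (15.2%), where the background was 15.2%. The 5 windows passing in either direction compare with a background of 18.1%, and the median log2 ratio was -0.21 over member windows and over all windows examined. The share of members was therefore near the background, and no result about these chromosomes rests on it. The lowest ratios were on the long arm of chromosome 16. At 51 to 52 Mb there were 4 intervals in treated and 23 in untreated knockout, a ratio of 0.290 (0.0729 to 0.849). At 54 to 55 Mb there were 6 and 30, a ratio of 0.333 (0.113 to 0.814), and at 68 to 69 Mb 2 and 12, whose interval included 1 (0.278, 0.0302 to 1.25).

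By segment, the treated to untreated ratio in the knockout was 0.805 on the long arm of chromosome 16 (0.702 to 0.921) and 1.15 on chromosome 19 from 50 Mb (1.03 to 1.28). Both depended on how peaks were counted: with each called peak counted as 1, they were 0.897 (0.778 to 1.03) and 0.985 (0.872 to 1.11), and both intervals included 1. On the short arm of chromosome 16 it was 0.905 (0.593 to 1.36), on the first 30 Mb of chromosome 19 0.556 (0.272 to 1.06) and on chromosome 22 0.584 (0.293 to 1.10), intervals that all included 1. Of the 31 windows examined in both genotypes, 4 were lower by 2-fold or more under osimertinib in the knockout and in wild type. Another 16 were lower by that much in wild type and within 2-fold in the knockout, and 1 was higher in wild type and within 2-fold in the knockout. A single list per condition gives no test of a difference between genotypes in the effect of treatment.

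**Figure D3:**
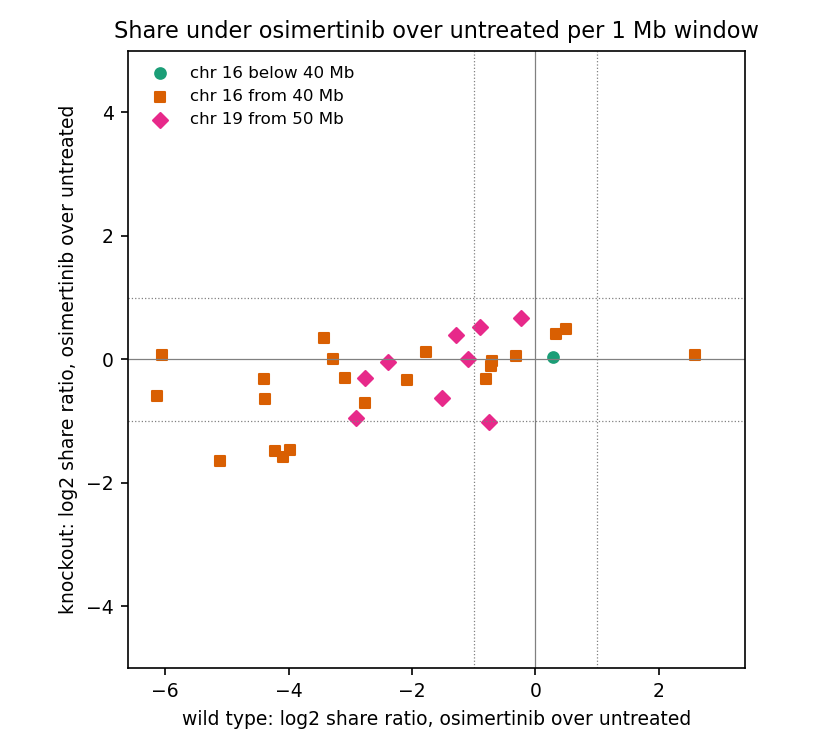
Log2 ratio of the share of each 1 Mb window under osimertinib over untreated in knockout (y axis) against wild type (x axis), 1 point per member window with 10 or more intervals in a list of both genotypes, marked by segment, with dotted lines at 2-fold. Wild-type ratios run from -6.13 to 2.58 and knockout ratios from -1.65 to 0.67. Of the 15 member windows 2-fold or more higher in wild type, 1 is drawn.

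Treated knockout over treated wild type had the highest share of windows past 2-fold among the 4 comparisons. This held for member windows and for all windows examined, so the ranking is not particular to these chromosomes. Of 37 windows, 17 were 2-fold or more higher in the knockout (45.9%), where the background over 353 windows was 28.0%. Lower shares were found in 15 (40.5%), where the background was 51.0%, and 32 passed in all (86.5%), where the background was 79.0%. The median log2 ratio was -0.16 over the member windows and -1.06 over all windows examined. The higher windows lay on the long arm of chromosome 16 (10 of 19) and on chromosome 19 from 50 Mb (7 of 8). The lower ones lay on the short arm of chromosome 16 (6 of 7), on its long arm (6 of 19) and on chromosome 22 (3 of 3).

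The share on chromosome 19 from 50 Mb was 3.97 times as high in treated knockout as in treated wild type (3.37 to 4.70). On the long arm of chromosome 16 the ratio was 1.62 (1.37 to 1.91), and within it 15.5 from 47 to 59 Mb (9.13 to 28.2) but 0.275 from 83 Mb to the end (0.188 to 0.392). It was 0.260 on the short arm of chromosome 16 (0.179 to 0.371), or 0.140 (0.0763 to 0.241) with maxima at or above the list median, and 0.113 on chromosome 22 (0.0606 to 0.196). At 49 to 50 Mb of chromosome 16 there were 34 intervals in treated knockout and 2 in treated wild type, a ratio of 21.9 (5.62 to 188). Windows 48 to 49 Mb and 55 to 56 Mb held 20 and 12 intervals in treated knockout and 0 in treated wild type. The exact intervals of their ratios had lower limits of 6.36 and 3.58. In the other direction, 37 to 38 Mb and 38 to 39 Mb of chromosome 22 held 0 intervals in treated knockout. Treated wild type held 39 and 27 there, and the upper limits of the ratios were 0.128 and 0.189. The window at 27 to 28 Mb of chromosome 16 held 0 intervals in treated knockout against 32 in treated wild type. The upper limit of its ratio was 0.157. This comparison shares the treated wild-type list with the treatment comparison in wild type, and the 2 are therefore not independent of each other.

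Without drug, knockout and wild type differed in few member windows. Of 40 windows, 1 was higher by 2-fold or more in the knockout (2.5%), where the background over 360 windows was 3.61%, and 6 were lower by as much (15%), where the background was 18.3%. The 7 in all (17.5%) compare with a background of 21.9%, and the median log2 ratio was -0.05 over member windows and -0.24 over all windows examined. The one higher in the knockout spanned 52 to 53 Mb of chromosome 16 and held 10 intervals in untreated knockout and 2 in untreated wild type (6.12, 1.30 to 57.4). The lowest ratio, 0.0764 (0.00182 to 0.492), belonged to 1 to 2 Mb on the same chromosome, where untreated knockout had 1 interval and untreated wild type 16. The next megabase, 2 to 3 Mb, had 2 in untreated knockout and 15 in untreated wild type (0.163, 0.0181 to 0.701). On chromosome 22, the stretch 20 to 21 Mb had 1 in untreated knockout and 11 in untreated wild type (0.111, 0.00258 to 0.765).

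By segment the knockout share was higher on chromosome 19 from 50 Mb, 1.41 times that of wild type (1.28 to 1.56) and 1.77 times by called peaks (1.57 to 2.0). With only intervals whose maximum was at or above the median of their list, the ratio was 1.04 and its interval included 1 (0.931 to 1.157). On the long arm of chromosome 16 the ratio was 0.958 (0.864 to 1.06). Ratios below 1 were found on the short arm of chromosome 16 (0.664, 0.489 to 0.895), on chromosome 22 (0.510, 0.343 to 0.744) and on the first 30 Mb of chromosome 19 (0.645, 0.426 to 0.963). Under the same requirement on maxima these 3 ratios turned round to 1.32, 1.46 and 1.31, and their intervals then included 1.

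Overlap of single intervals followed the same segments. A counterpart was an interval of the other list that overlapped by at least 1 bp. Of the treated wild-type members, 65.5% had no counterpart in untreated wild type (62.1 to 68.7), where the background of the whole list was 71.3%. The share with a counterpart was 84.8% on chromosome 19 from 50 Mb (162 of 191) and 28.9% on the long arm of chromosome 16 (74 of 256). It was 16.5% on the short arm of chromosome 16 (31 of 188) and 6.29% on chromosome 22 (10 of 159). The intervals of untreated wild type covered 316 kb per occupied window on chromosome 19 from 50 Mb, against 10.9 kb on chromosome 22, so an overlap is more readily met on chromosome 19 by coverage alone. In the opposite direction, 88.9% of the untreated wild-type members had no treated counterpart (87.4 to 90.3), where the background was 85.2%.

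In the knockout, 46.5% of the treated members had no untreated counterpart (43.3 to 49.7), where the background was 56.3%, and 73.0% of the untreated members had no treated one (70.8 to 75.2), where the background was 76.6%. Members of the treated knockout list had an untreated counterpart 1.27 times as often as the rest of that list (1.15 to 1.39, counting error only). By segment, the share with one was 69.9% on chromosome 19 from 50 Mb (412 of 589), above the 42.2% of the rest. It was below the rest on the other 4 segments, at 30.8% on the long arm of chromosome 16, 21.1% on its short arm, 15.4% on the first 30 Mb of chromosome 19 and 7.14% on chromosome 22. Untreated knockout intervals covered 186 kb per occupied window on chromosome 19 from 50 Mb, against 4.20 kb on chromosome 22. Coverage alone thus makes an overlap more readily met on chromosome 19 from 50 Mb here too. Between the treated lists, 85.6% of the knockout members had no wild-type counterpart (83.3 to 87.8), where the background was 86.6%, and 81.4% of the wild-type members had no knockout counterpart (78.5 to 84.0), where the background was 89.5%. The treated wild-type members that did have one were mainly on chromosome 19 from 50 Mb, where 111 of 191 overlapped a treated knockout interval, against 1 of 159 on chromosome 22. Treated knockout covered 86.8 kb per occupied window on the former and 1.86 kb on the latter, so the same limit holds. Between the untreated lists, 40.5% of the knockout members had no wild-type counterpart (38.1 to 42.9), where the background was 46.3%, and 60.5% of the wild-type members had no knockout counterpart (58.2 to 62.7), where the background was 64.9%.

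When overlapping intervals of the 4 lists were merged, the members gave 3250 positions, of which 89 were touched by all 4 lists, 2.74% (2.20 to 3.36), against 580 of 25947 positions outside the members, 2.24% (2.06 to 2.42). Of the 89 positions, 69 lay on chromosome 19 from 50 Mb, 16 on the long arm and 4 on the short arm of chromosome 16, and 0 on chromosome 22 or the first 30 Mb of chromosome 19. The exact 95% upper limits of these zero shares were 1.26% of 291 positions on chromosome 22 and 3.05% of 119 on the first 30 Mb of chromosome 19. A merged position is a chain of overlapping intervals, so the lists that touch it need not all overlap each other. Positions in all 4 lists were up to 48600 bp wide on chromosome 19 from 50 Mb, where high coverage makes them more readily met. A further 280 positions were in 3 lists, and treated wild type was the missing list in 232 of them, 82.9% (77.9 to 87.1), against 67.1% outside the members (65.0 to 69.2). The missing list was treated knockout in 35, untreated knockout in 10 and untreated wild type in 3. Of the 232, 162 lay on chromosome 19 from 50 Mb and 61 on the long arm of chromosome 16. The short arm of chromosome 16 differed: of its 12 positions in 3 lists, treated wild type was missing in 3 and treated knockout in 7. Positions in a single list were the most frequent, at 70.5% of members and 73.2% outside. Of the 2292 such member positions, 496 were in treated wild type alone and 959 in untreated wild type alone. Outside the members these numbers were 5754 and 6960 of 18996. The 496 comprised 168 on the long arm and 147 on the short arm of chromosome 16, and 148 on chromosome 22. On chromosome 19 there were 19 from 50 Mb and 14 on the first 30 Mb.

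Window counts ranked more alike between lists other than treated wild type, over all members and on every segment, though to differing degrees. Over the 139 member windows with an interval in any list, Spearman's rho was 0.812 between untreated knockout and untreated wild type, and 0.760 between treated and untreated knockout. It was 0.298 between treated and untreated wild type and 0.263 between treated knockout and treated wild type. The corresponding Pearson coefficients were 0.953, 0.961, 0.417 and 0.520. On the long arm of chromosome 16 alone, over 44 windows, rho was 0.934, 0.897, 0.330 and 0.267 in the same order of comparisons. On chromosome 19 from 50 Mb, over 10 windows, it was 0.933, 0.976, 0.720 and 0.790. It was 0.562, 0.434, 0.271 and 0.260 on the short arm of chromosome 16 (30 windows), and 0.655, 0.319, -0.316 and -0.193 on chromosome 22 (33 windows). On the first 30 Mb of chromosome 19 (22 windows) it was 0.612, 0.465, -0.0267 and -0.0224. These correlations describe single lists across windows that are not independent replicates.

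Widths followed the list more than the segment. Members had a median width of 1250 bp in treated knockout, 1200 bp in treated wild type, 1700 bp in untreated knockout and 2650 bp in untreated wild type, against 1150, 1200, 1650 and 2600 bp in the rest of the lists. The widest members were on chromosome 19 from 50 Mb in both untreated lists, with a median of 1750 bp in untreated knockout and 2950 bp in untreated wild type. The single widest, 43350 bp, lay at 56617351 to 56660700 in untreated wild type. Called peaks were often split into several intervals: 37.7% of the members were such pieces in treated knockout, 47.5% in treated wild type, 4.01% in untreated knockout and 54.6% in untreated wild type.

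The maximum of a called peak, the highest coverage within it as deposited by the authors, was compared within a list only. On chromosome 19 from 50 Mb its median was 1.12 times the list median in treated knockout, 1.00 in treated wild type, 1.2 in untreated knockout and 1.08 in untreated wild type. On chromosome 22 it was 0.812, 0.909, 1.00 and 0.75 times in the same order. In the rest of each list it was 1.00, 1.00, 1.00 and 0.917 times. The maxima fell on coarse steps, such as 0.875, 1.00 and 1.125 times in treated knockout, so these medians can differ by single steps. In untreated wild type the interquartile range ran from 0.917 to 1.33 on chromosome 19 from 50 Mb and from 0.667 to 0.896 on chromosome 22, while in both treated lists and untreated knockout the ranges met or overlapped.

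**Figure D4:**
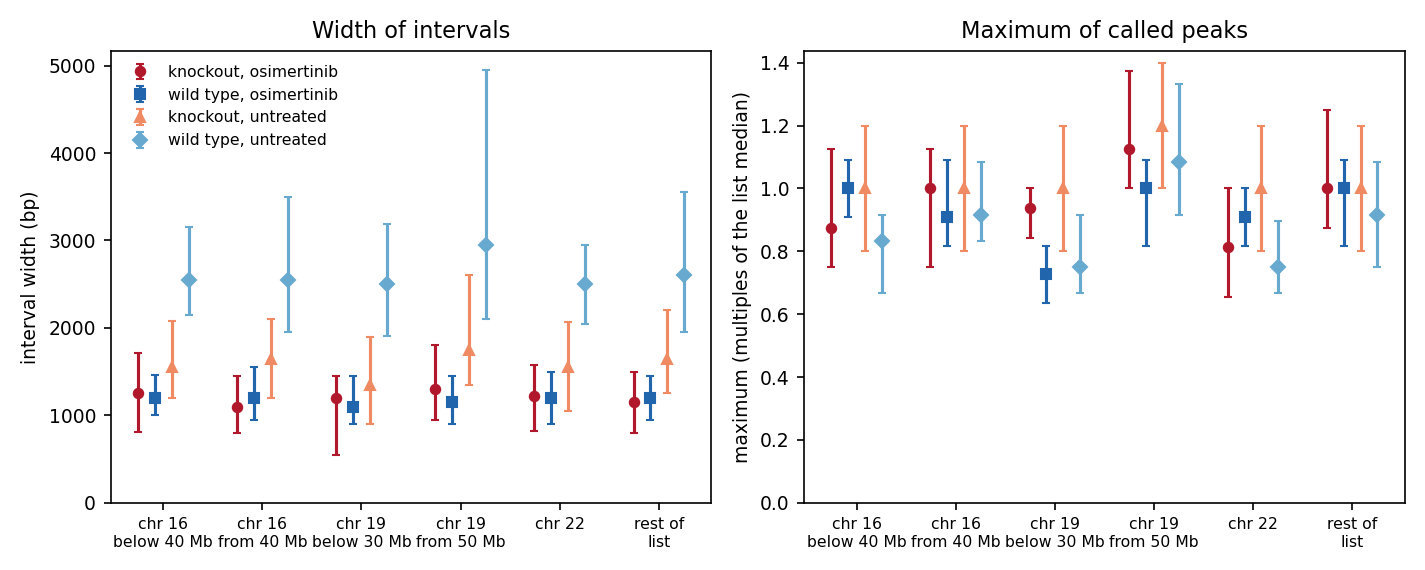
Width of intervals (bp, left) and maximum of called peaks in multiples of the median over the intervals of the list (right) on the 5 segments and in the rest of each list. Points are medians and bars run over the interquartile range. Untreated wild type has the widest intervals on all 5 segments, and chromosome 19 from 50 Mb has the highest median maximum among the segments in both knockout lists and in untreated wild type.

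A block at the start of the assembled long arm of chromosome 16 held the highest members of every list. The first interval after the stretch without intervals began at 46385801 in treated knockout and untreated wild type, at 46385901 in treated wild type and at 46385851 in untreated knockout. The sequence next to this centromere is known for satellite repeats, where reads are hard to place. The highest called peak stood at 40.2 times the list median in treated knockout, 40.9 times in treated wild type, 47.8 times in untreated knockout and 49.1 times in untreated wild type. Its highest coverage lay at 46423801 to 46423850 in treated knockout and in both untreated lists, and at 46423851 to 46423900 in treated wild type. A second maximum lay at 46392001 to 46392050 in all 4 lists, at 29.8, 28, 29.6 and 25.8 times the list median. The block up to 46436100 was covered by 11 intervals in treated knockout, 16 in treated wild type, 8 in untreated knockout and 5 in untreated wild type, so its number of intervals differed while its summits lay within 50 bp of each other for these 2 maxima.

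Outside this block the members reached far lower maxima. The highest was an interval on the short arm of chromosome 16 that ran from 33237201 to 33241300 in both untreated lists, the only member with identical ends in the untreated lists. It stood at 4.0 times the list median in treated knockout, 6.18 times in treated wild type, 5.2 times in untreated knockout and 7.5 times in untreated wild type. A neighbour at 33293801 to 33295050 stood at 3.36 times the median in treated wild type, and the interval overlapping it reached 1.25 times in treated knockout and 2.5 times in untreated wild type. Untreated knockout had no interval there. On chromosome 19 the positions in all 4 lists with the highest ranks were 56286651 to 56335250, with 2.12, 1.73, 2.6 and 1.83 times the list median, and 56374001 to 56411500, with 2.5, 1.73, 1.8 and 1.92 times, each in the order treated knockout, treated wild type, untreated knockout and untreated wild type.

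**Figure D5:**
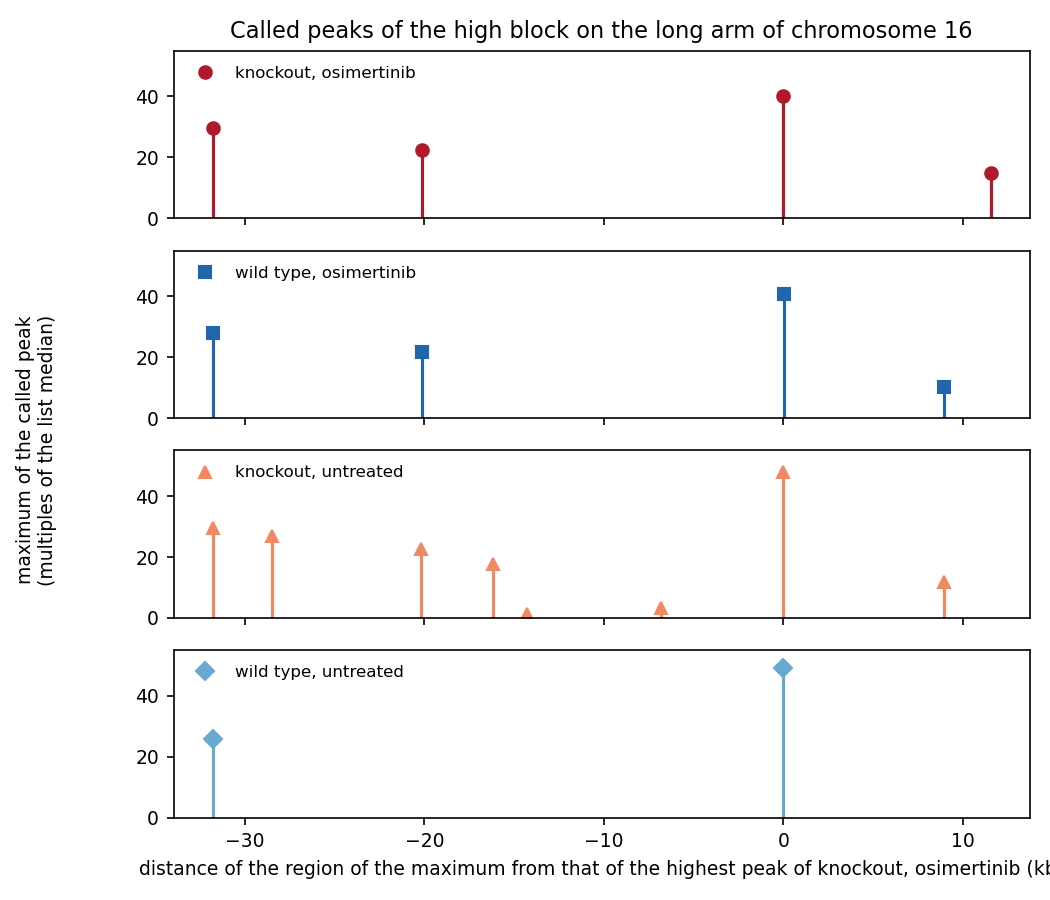
Maximum of each called peak of the chromosome 16 block in multiples of the list median (y axis) against the distance in kb of its region of highest coverage from that of the highest peak of treated knockout (x axis), 1 panel per list. The highest peak lies at the same place to within 50 bp in the 4 lists, at 40.2, 40.9, 47.8 and 49.1 times the list median from top to bottom, and a second one lies at about -31.8 kb in every list.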

How the data were processed

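CUT&RUN was performed on PC9 cells with TOP2B (8 samples) or histone H2A (8 samples, not analysed here) antibodies. Libraries were made from 2.5 ng of chromatin, per the labels' protocols. The submitters' processing notes name SEACR, Bowtie2 2.4.2, bedtools 2.30, SAMtools 1.16, deepTools 3.5.1, FastQC, Trimmomatic and build GRCh37. The sources used here do not state the peak calling mode, control or duplicate handling. Each of the 4 deposited lists is named by its authors an intersection of peaks. The deposited area of a called peak is a score (summed signal), and the deposited maximum is a signal (highest coverage) of unstated scaling. Both belong to the called peak, which can give several intervals.

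Intervals were assigned by midpoint, in Python 3.11.15 with pandas 2.3.3 and scipy 1.17.1. Shares carry exact Clopper-Pearson and ratios exact conditional 95% intervals. Functions were tested on simulated data. Members, segments and rules were chosen with earlier results of these data known. Planned gene and promoter comparisons were not run, for want of a GRCh37 annotation. Named windows were the 3 highest and 3 lowest ratios per comparison among windows past 2-fold, and named intervals the highest maxima of each list and the highest-ranked positions in all 4 lists. Positions are counted from 1.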

Additional observations from a re-analysis of the deposited data

Results flagged for a closer look

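On chromosome 19 from 50 Mb, the share of the list under osimertinib over untreated was 1.15 in the knockout (95% interval 1.03 to 1.28) and 0.407 in wild type (0.346 to 0.478), so the 2 genotypes lay on opposite sides of 1. The difference itself was not tested, since each condition had 1 list. When each called peak was counted as 1, the knockout ratio was 0.985 and the wild-type ratio 0.466.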

How the results depend on the processing

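No paired analysis was possible because each condition had 1 list made from both replicates, and for the same reason no replicate could be left out. The share of members in treated knockout over treated wild type became 1.76 when maxima at or above the list median were required. In treated over untreated wild type it became 0.742 by called peaks, 0.578 with that requirement and 0.754 without chromosomes 5, 7, 17, 20 and the middle of 19. The other 16 of 20 alternatives for these ratios stayed within the main 95% interval. The percent of members without a counterpart depended on the overlap. It was 84.6, 94.2, 96.4 and 80.1 when 50% of both intervals had to overlap, and 19.4, 67.5, 51.9 and 18.9 when an interval within 5 kb sufficed. These are given for knockout over wild type untreated and treated, then for treated over untreated wild type and knockout. With the requirement on maxima it was 44.4 for the untreated knockout against wild type and 42.9 for treated against untreated knockout. Windows past 2-fold in the untreated genotype comparison numbered 1 of 26 with a minimum of 20 intervals and 11 of 38 by called peaks. Under osimertinib they numbered 14 of 16 in 5 Mb windows and 20 of 22 with that minimum, in treated over untreated wild type 18 of 23 and 26 of 34, and in the knockout 0 of 14 and 2 of 20, where fewer windows were examined. Of 100 segment ratios, 4 turned round: with the requirement on maxima, untreated knockout over wild type became 1.32 on the short arm of chromosome 16, 1.31 on the first 30 Mb of chromosome 19 and 1.46 on chromosome 22, and by called peaks treated over untreated knockout became 0.985 on chromosome 19 from 50 Mb. Another 10 lay outside the main 95% interval without turning round. With the requirement on maxima, untreated knockout over wild type on chromosome 19 from 50 Mb became 1.04. Treated knockout over treated wild type on the short arm of chromosome 16 became 0.140. Treated over untreated wild type became 5.69 on that arm, 5.90 on chromosome 22 and 0.291 on chromosome 19 from 50 Mb. In the knockout, treated over untreated became 0.692 on the long arm of chromosome 16. The rest of the 10 came by called peaks or summed length. The cause was not tested; many maxima tie at the list median. Of 57 alternatives for named windows, chosen after seeing the data, 1 lay within 2-fold. Depth is unknown.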
